A study of Mus musculus with 5 samples.

Results

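Glycolysis turns glucose into pyruvate. Pyruvate then enters the mitochondria through the pyruvate dehydrogenase complex, or is reduced to lactate and carried out of the cell. A set of 35 genes of these steps was followed, from the glucose transporters through the glycolytic enzymes to lactate handling, pyruvate dehydrogenase and its kinases, and the pentose phosphate branch. Each was found by its gene name in the deposited count table, and all 35 of 35 were present among 49671 genes. RNA came from 2 SO+ embryos (genotype WT; Sox2Cre-/-; Oct4 fl/+) and 3 SO− embryos (Sox2Cre+/-; Oct4 fl/-) at about E6.75, on a mixed strain background. All 5 embryos carried at least 1 floxed allele of Oct4 (Pou5f1, a pluripotency transcription factor), and the SO− embryos carried in addition the Cre transgene and a null allele. Each library was made by SmartSeq2 from 1 embryo, as epiblast plus visceral endoderm (VE), after the extra-embryonic ectoderm (ExE) had been removed. The Sox2Cre transgene acts mainly in the epiblast, so VE cells in the sample can keep an unrecombined allele.

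Oct4 itself was measured at 920.2 and 435 CPM (counts scaled to one common library total) in SO+ embryos 1 and 2, and at 27.8, 12.5 and 43.7 CPM in SO− embryos 1, 2 and 3 (log2 fold change −4.43, edgeR adjusted p = 3.94e-05), so that the labels held in all 5 embryos. The SO+ libraries summed to 27538119 and 27047148 counts and the SO− libraries to between 1117566 and 4191498 counts. The SO+ libraries also shared a second index and the SO− libraries another, so genotype, index and depth cannot be told apart. In SO− embryo 2, the shallowest, 3 counts corresponded to 2.68 CPM, against 0.109 CPM in SO+ embryo 1, a limit that covers counting error only. Markers of both labelled tissues were present, with none of 12 VE and none of 9 epiblast markers at 0 in any embryo. The summed VE markers stood at 4634 and 4613 CPM in SO+ and at 6436, 6528 and 4337 CPM in SO− embryos. Spink1, 1 of the 12, was called higher. The log2 fold change was above 0 for 11 of 12, with a median of 0.38. Hnf4a was also higher without overlap, at 29.8 and 44.1 CPM against 74.5, 70.7 and 46.5 CPM, and was not called. The summed epiblast markers stood at 5951 and 5079 CPM in SO+ and at 2941, 2550.2 and 3662 CPM in SO− embryos, and 3 of 9 (Utf1, Dnmt3b and Slc7a3) were called lower. Most of this sum was Dnmt3b, at 3983 and 3263 CPM in SO+ and at 1708, 1447 and 2286 CPM in SO− embryos. Another 3 of 9, Fgf5, Sox2 and Nanog, had log2 fold changes above 0 (0.38, 0.56 and 0.02). Sox2 was higher without overlap, and none of them was called. Tdgf1 and Otx2 were lower without overlap and not called (log2 fold changes −0.40 and −0.23). Of the 9 epiblast markers, 5 were thus lower without overlap and 1 was higher. ExE markers summed to 20.95 and 23.7 CPM in SO+ and to 43.3, 60.0 and 32.0 CPM in SO− embryos, with Hand1 called higher. Hand1 stood at 1.09 and 2.74 CPM in SO+ and at 13.5, 24.2 and 11.9 CPM in SO− embryos. Bmp4 was also higher without overlap, at 4.43 and 3.85 CPM against 10.6, 16.1 and 5.25 CPM. The other 4 ExE markers tested overlapped, and Elf5 and Esrrb were too low for the test. Blood and decidua markers did not exceed 4.88 CPM, with 6 or 7 of 8 at 0 in every embryo.

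The early post-implantation epiblast is known as a strongly glycolytic tissue, in which much of the pyruvate leaves the cell as lactate. Several steps of the pathway are served by alternative genes: hexokinase, phosphofructokinase, aldolase, enolase, lactate dehydrogenase and the transporters each have isoforms that differ in tissue and in regulation. Which isoform a tissue uses is therefore read from the level of each gene per length of its exons.

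Transcripts of every step from hexokinase to lactate dehydrogenase were present in each embryo, while single members fell to a few counts. Ldha, the muscle-type subunit of lactate dehydrogenase, was the highest member, with a mean of 1964 CPM per kb of exon (RPKM). Pkm, the pyruvate kinase gene, followed at 1076 RPKM, then Gapdh at 845 RPKM. The order among these 3 held without overlap across all 5 embryos, although in SO+ embryo 1 Eno1 (979 RPKM) stood above Gapdh (909 RPKM). The same merged exon lengths were used in every embryo, 5001 bp for Pkm and 4133 bp for Gapdh. They can exceed the lengths of the transcripts present, and the order per length depends on them. Eno1 (673 RPKM), Tpi1 (596 RPKM) and Aldoa (571 RPKM) came next, and their ranges over embryos overlapped. The glucose transporter Slc2a1 reached 323 RPKM and Slc2a3 189 RPKM. At the other end, Pdk4, a kinase that shuts pyruvate dehydrogenase during fasting, had at most 2 counts in any embryo, and the neuronal enolase Eno2 had 93 and 63 counts in SO+ and 3, 2 and 5 counts in SO− embryos. These 2 genes were too low for the test, which left 33 of 35 members.

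**Figure D1:**
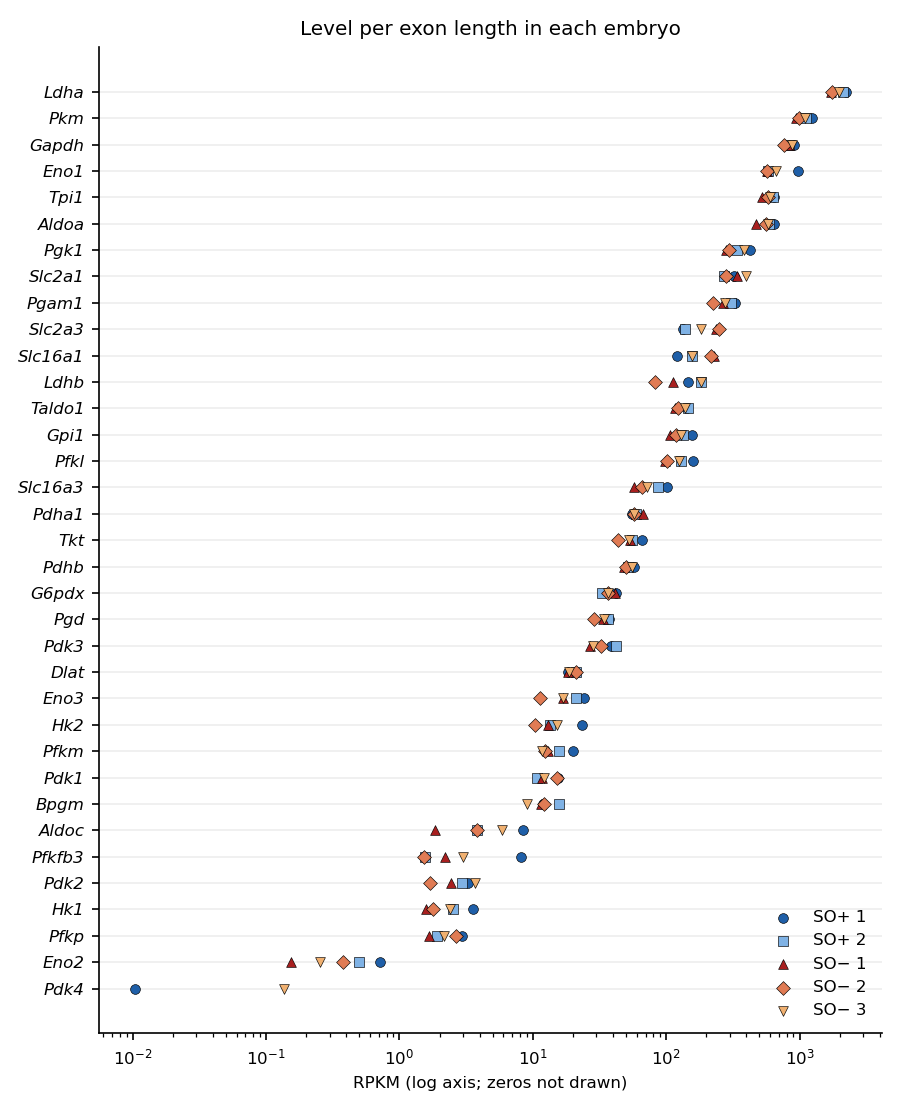
Level of each of the 35 genes in each embryo, in CPM per kb of exon (RPKM) on a log axis; each point is 1 embryo, and values of 0 are not drawn. Ldha and Pkm lie at the top in every embryo, followed by Gapdh in 4 of them and by Eno1 in SO+ embryo 1, and Eno2 and Pdk4 lie below 1 RPKM in all of them.

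Deletion of Oct4 was followed by few called changes in this pathway. Slc2a3, a high-affinity glucose transporter, was higher in SO− embryos, and Slc16a3, a lactate exporter, was lower. The other 31 members tested did not pass an edgeR adjusted p of 0.05. The share called over all 12067 genes tested was 1.42% higher and 0.928% lower, against 1 of 33 members in each direction. The members leaned to lower values all the same. The log2 fold change was below 0 for 28 of 33 members (84.8%), with a median of −0.25, while over all genes tested it was below 0 for 50.3%, with a median of −0.0019. Without SO+ embryo 1, the member median was −0.14 and 23 of 33 were below 0, so the size of the lean rests in part on that library. Among the 2194 genes with a mean of at least 100 CPM, 56.0% were below 0 and the median was −0.021. Every SO− value lay below both SO+ values for 15 of 33 members, where 15.6% of all genes tested did so, and every SO− value lay above both for 2 of 33, where 13.9% did. At an unadjusted p under 0.05, 13 members were lower (6.46% of all genes) and 2 were higher (7.27%). These shares describe members that are measured in the same 5 libraries, and no test was made of the list.

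The lean was not equal in the 3 SO− embryos. In SO− embryo 1, 26 of 33 members lay below both SO+ embryos, in SO− embryo 2, 23, and in SO− embryo 3, 16. SO− embryo 3 thus stood nearest to the SO+ pair, and it was also the SO− embryo with the lowest VE and the highest epiblast marker sum. Members above both SO+ embryos numbered 4, 2 and 4. The part of both tissues' shares in these counts was not tested, and fewer cells of a type and less RNA per cell cannot be told apart in such samples.

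**Figure D2:**
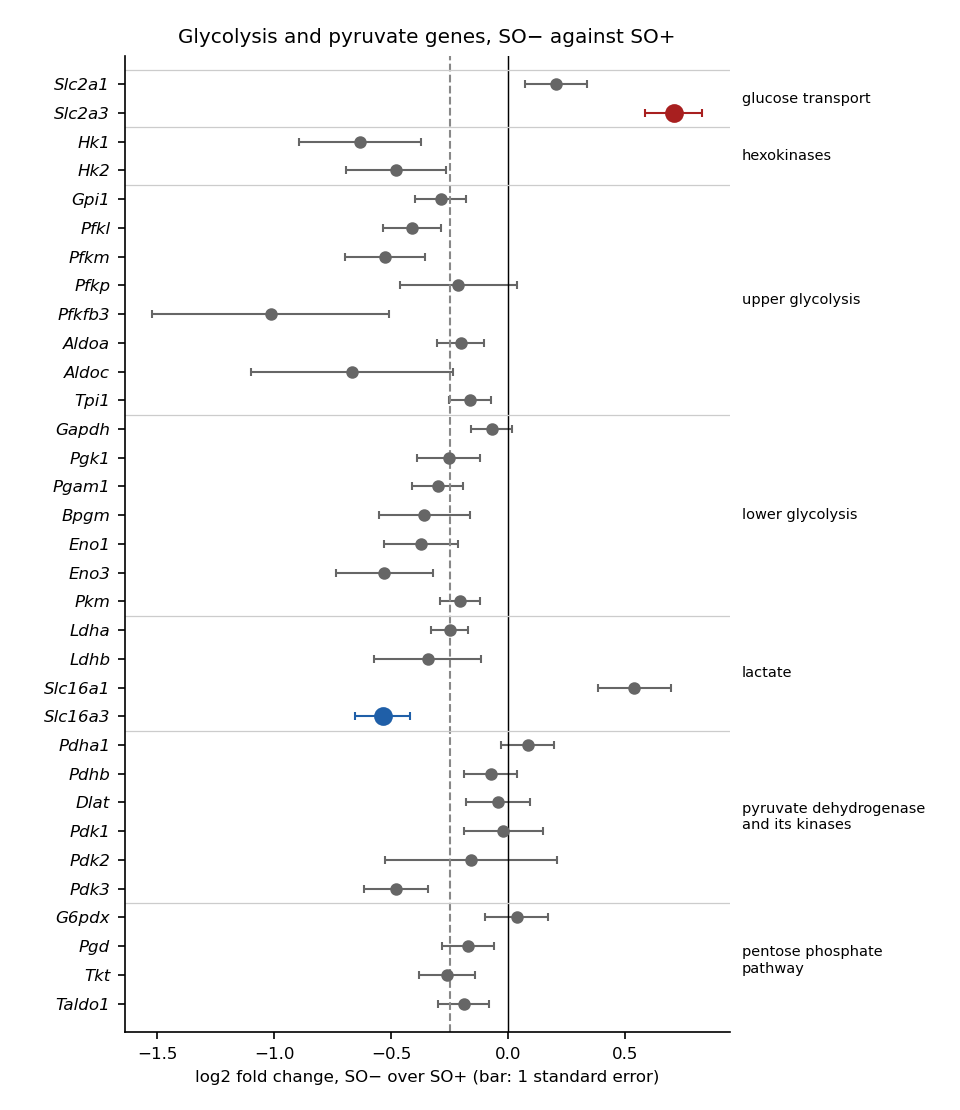
The log2 fold change of the 33 members tested, SO− over SO+, with bars of 1 standard error, grouped by step of the pathway; the dashed line marks the median of −0.25. Slc2a3 (red) and Slc16a3 (blue) are the 2 members called, and 28 of the 33 points lie below 0.

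The transporters, which carry glucose in and lactate out, held both called members. Slc2a3 (ENSMUSG00000003153, chr6:122727809-122801640, minus strand, GRCm38) was measured at 976 and 1007 CPM in SO+ embryos 1 and 2, and at 1721, 1812 and 1317 CPM in SO− embryos 1, 2 and 3. All 3 SO− embryos lay above the SO+ pair, which differed by only 1.03-fold. The log2 fold change was 0.71 (SE 0.12, edgeR adjusted p = 0.0075). The lowest SO− value came from embryo 3, whose VE marker sum was below both SO+ embryos. The part of the VE share in the Slc2a3 difference was not tested. Slc2a1 (chr4:119108711-119137983), the basal glucose transporter, stood at 1127 and 958 CPM in SO+ and at 1187, 992 and 1397 CPM in SO− embryos. These values overlapped between genotypes (log2 fold change 0.20, SE 0.13, edgeR adjusted p = 0.566). The sum of both glucose transporters was 2102 and 1965 CPM in SO+ and 2907, 2804 and 2715 CPM in SO− embryos, a ratio of 1.38 with no overlap. The exact permutation p was 0.1 (two-sided), the smallest that 10 splits of 5 embryos can give. The call on Slc2a3 was lost without SO− embryo 1 (edgeR adjusted p = 0.159) or without SO− embryo 2 (edgeR adjusted p = 0.150), with log2 fold changes of 0.64 and 0.62.

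The lactate transporters had fold changes of opposite sign, and only Slc16a3 was called. Slc16a3 (ENSMUSG00000025161, chr11:120948480-120960868, plus strand), which exports lactate from glycolytic cells, was measured at 542 and 459 CPM in SO+ and at 304, 348 and 379 CPM in SO− embryos. Every SO− embryo lay below both SO+ embryos. The log2 fold change was −0.54 (SE 0.12, edgeR adjusted p = 0.032). Slc16a1 (ENSMUSG00000032902, chr3:104638668-104658462, plus strand), which carries lactate and pyruvate in either direction, was measured at 534 and 695.4 CPM in SO+ and at 1018, 963 and 696.6 CPM in SO− embryos. SO− embryo 3 thus sat level with SO+ embryo 2, and the groups were separated by that small gap alone. The log2 fold change was 0.54 (SE 0.15, edgeR adjusted p = 0.1003), and DESeq2 gave an adjusted p of 0.025. The call on Slc16a3 was lost with limma-voom (adjusted p = 0.109), and with edgeR without SO+ embryo 1 (adjusted p = 0.172), SO− embryo 1 (adjusted p = 0.281) or SO− embryo 2 (adjusted p = 0.242). The sum of both lactate transporters overlapped between genotypes, at 1076 and 1154 CPM against 1323, 1311 and 1076 CPM (exact permutation p = 0.4). No exon of Slc2a3, Slc16a3, Slc16a1 or Ldha overlaps an exon of another annotated gene.

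**Figure D3:**
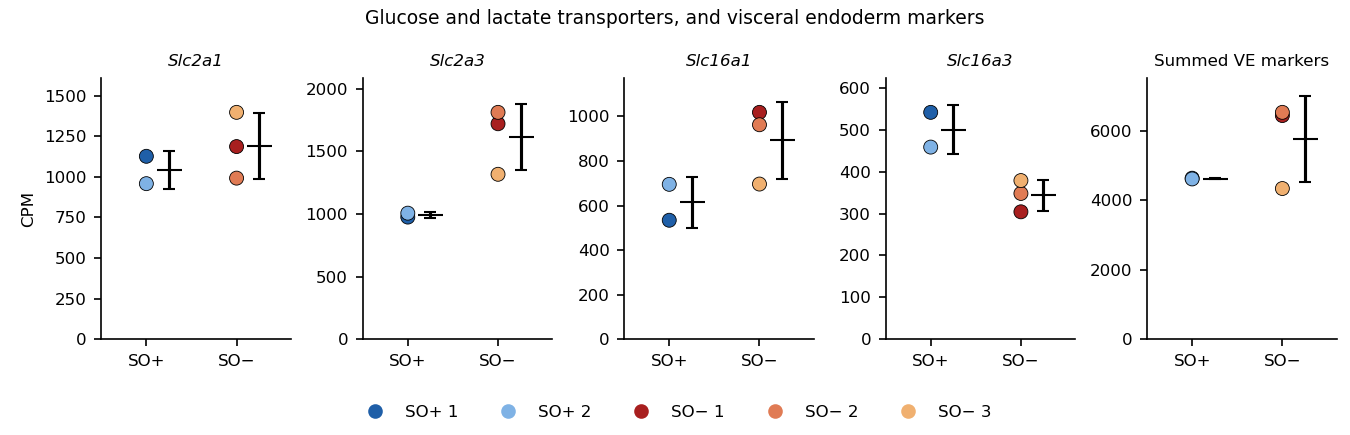
CPM of the 4 transporters and of the 12 summed VE markers, with 1 point per embryo and the mean ± SD of each genotype beside them (n = 2 SO+ and n = 3 SO−). Slc2a3 is higher in all 3 SO− embryos and Slc16a3 is lower in all 3, while the VE marker sum of SO− embryo 3 lies below the SO+ pair.

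Sequences before transcript starts of these genes are shown because hypoxia-inducible factors and MYC proteins, both known regulators of glycolytic genes, read short words there. The windows hold the 250 bases before a RefSeq transcript start (GRCm38.p6). Letters in capitals mark ACGTG or GCGTG, the hypoxia response core, on either strand. CACGTG, the E-box, contains ACGTG on both strands, so each E-box counts as 2 ACGTG matches. The windows of Slc16a3 (chr11:120948817-120949066, plus strand), Slc16a1 (chr3:104638414-104638663, plus strand) and Ldha (the window with most matches of its 2, chr7:46845554-46845803, plus strand) read 5′ to 3′ as follows. Those of Slc16a3 and Ldha lie within the gene spans of the GENCODE annotation, where other transcripts start earlier.
Slc16a3: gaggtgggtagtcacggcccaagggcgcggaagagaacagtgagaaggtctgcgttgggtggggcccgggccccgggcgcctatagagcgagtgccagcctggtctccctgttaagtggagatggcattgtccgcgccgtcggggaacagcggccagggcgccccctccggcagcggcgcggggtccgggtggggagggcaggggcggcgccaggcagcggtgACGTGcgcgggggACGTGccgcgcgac
Slc16a1: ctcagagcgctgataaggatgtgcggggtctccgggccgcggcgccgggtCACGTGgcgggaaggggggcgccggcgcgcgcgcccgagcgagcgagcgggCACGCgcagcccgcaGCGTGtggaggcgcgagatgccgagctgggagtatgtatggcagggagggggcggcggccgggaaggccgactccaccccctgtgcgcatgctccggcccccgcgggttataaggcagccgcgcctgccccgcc
Ldha: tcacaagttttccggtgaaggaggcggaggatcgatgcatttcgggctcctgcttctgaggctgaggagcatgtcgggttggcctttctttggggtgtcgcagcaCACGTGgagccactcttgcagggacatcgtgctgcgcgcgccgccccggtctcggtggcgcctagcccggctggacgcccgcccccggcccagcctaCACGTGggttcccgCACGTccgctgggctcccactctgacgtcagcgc
The Slc16a3 window held 2 ACGTG words and no E-box. The Slc16a1 window held 2 ACGTG and 2 GCGTG matches, with 1 E-box. The Ldha window held 5 ACGTG matches, with 2 E-boxes. Slc2a3 was not matched in the RefSeq table. Over the 34 members that were matched, with 49 windows, ACGTG was found in 34.7% of windows and CACGTG in 10.2%, where 16.6% and 6.02% of all 32851 windows hold them. GCGTG was found in 55.1% of member windows and in 28.2% of all windows. The windows compared were not matched for base composition, and a gene with several starts gave several windows. The octamer ATGCAAAT, which POU factors such as Oct4 read, was present in 1 of the 49 member windows (2.04%, against 1.6% of all windows), and this word was added after the values had been seen. A match is a description of the letters and does not show binding.

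Hexokinases commit glucose to the cell by phosphorylating it. Hk2, the inducible form, was measured at 139 and 79.7 CPM in SO+ and at 77.4, 61.7 and 89.9 CPM in SO− embryos. SO+ embryo 1 stood above the rest and the other 4 embryos overlapped (log2 fold change −0.48, SE 0.21, edgeR adjusted p = 0.343). Hk1, the housekeeping form, was measured at 30.2 and 21.4 CPM in SO+ and at 13.5, 15.2 and 20.3 CPM in SO− embryos. Its groups did not overlap, but SO− embryo 3 came close to SO+ embryo 2 (log2 fold change −0.63, SE 0.26, edgeR adjusted p = 0.288). Per length, Hk2 made up 84.2% to 86.8% of the pair in SO+ and 85.3% to 89.1% in SO− embryos, so Hk2 was the main hexokinase of the 2 in either genotype.

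All 8 genes of upper glycolysis were measured below 0 on the log2 scale, and none was called. Phosphofructokinase, the main control point of the pathway, was carried by the liver-type subunit. Pfkl stood at 1065 and 865 CPM in SO+ and at 655, 681 and 829 CPM in SO− embryos, all 3 below the SO+ pair (log2 fold change −0.41, SE 0.12, edgeR adjusted p = 0.118). The muscle-type Pfkm stood at 67.1 and 52.5 CPM against 43.3, 41.2 and 39.4 CPM, again without overlap (log2 fold change −0.53, SE 0.17, edgeR adjusted p = 0.161). The platelet-type Pfkp overlapped, at 39.7 and 25.5 CPM against 22.3, 35.8 and 28.9 CPM (log2 fold change −0.21). Pfkl made up 87.03% to 89.9% of the 3 subunits per length over all 5 embryos.

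Pfkfb3 makes fructose 2,6-bisphosphate, the strongest activator of phosphofructokinase. It had the largest fold change among the members tested and also the widest spread within a genotype. It was measured at 61.3 and 11.7 CPM in the SO+ embryos, a 5.25-fold difference, and at 16.7, 11.6 and 22.7 CPM in the SO− embryos. SO+ embryo 1 alone was high, and SO+ embryo 2 lay within the SO− range. The log2 fold change was −1.01 (SE 0.51, edgeR adjusted p = 0.411), and it turned to 0.60 without SO+ embryo 1. Aldolase splits the hexose into 2 trioses. Aldoa was measured at 1888 and 1727 CPM in SO+ and at 1379, 1619 and 1699 CPM in SO− embryos, all below the SO+ pair, by the smallest margin in embryo 3 (log2 fold change −0.20, SE 0.10, edgeR adjusted p = 0.408). The brain-type Aldoc was at 27.7 and 12.5 CPM against 6.05, 12.5 and 19.1 CPM, with overlap (log2 fold change −0.67, SE 0.43, edgeR adjusted p = 0.566), and it never exceeded 1.29% of the pair per length. Gpi1 and Tpi1, the isomerases of the hexose and triose steps, lay below the SO+ pair in all 3 SO− embryos, with log2 fold changes of −0.29 and −0.16.

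In lower glycolysis, which yields ATP, all 7 genes tested were below 0 and none was called. Pkm was measured at 6176 and 5550.3 CPM in SO+ and at 4690.2, 4981 and 5514 CPM in SO− embryos. SO− embryo 3 nearly reached SO+ embryo 2, and the groups did not overlap (log2 fold change −0.21, SE 0.09, edgeR adjusted p = 0.301). Gapdh, often used as a reference gene, differed least of this group, at 3757 and 3450.4 CPM against 3448, 3146 and 3650.5 CPM. Its groups overlapped (log2 fold change −0.07, SE 0.09, edgeR adjusted p = 0.816). Pgam1, the phosphoglycerate mutase, was at 650.0 and 606 CPM against 528, 443 and 545 CPM, without overlap (log2 fold change −0.30, edgeR adjusted p = 0.215). Pgk1, the phosphoglycerate kinase on the X chromosome, overlapped (log2 fold change −0.25), as did Bpgm, which makes the 2,3-bisphosphoglycerate of red cells (−0.36). The muscle enolase Eno3 was at 41.9 and 36.9 CPM against 29.5, 19.7 and 29.3 CPM, without overlap (log2 fold change −0.53, SE 0.21, edgeR adjusted p = 0.260).

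Eno1, the highest enolase per length among the members, differed more within the SO+ pair than between genotypes. It was measured at 5268 and 3147 CPM in SO+ and at 3069, 3065 and 3559 CPM in SO− embryos, and SO+ embryo 2 lay inside the SO− range (log2 fold change −0.37, SE 0.16, edgeR adjusted p = 0.303). Eno1 shares nearly all of its sequence with Eno1b (99.48% identical over 1736 bp) and with the pseudogene Gm4735 (99.62% over 1302 bp), so reads can be divided between them. Gm4735 had 34.2 CPM in SO+ embryo 1 but 542 CPM in SO+ embryo 2 and 510.3 to 613 CPM in SO− embryos. Eno1b had 858 CPM in SO+ embryo 1 and 1195 to 1412 CPM in the other 4. SO+ embryo 1 was thus high in Eno1 and low in both copies. Per length, Eno1b stood at 457 and 684 RPKM in SO+ and at 637, 656 and 752 RPKM in SO− embryos. Eno1 stood at 979 and 585 RPKM against 571, 570 and 662 RPKM. On that scale Eno1b was the higher of the 2 in every embryo but SO+ embryo 1. In CPM, without the exon length, Eno1 was the higher in every embryo. The merged exon length of Eno1 was 5379 bp, while the 2 genes aligned over 1736 bp, so their order depends on the length used. With the counts of Eno1 and its 3 copies summed, the embryos stood at 6184 and 5003 CPM in SO+ and at 4796, 4861 and 5613 CPM in SO−, an overlap with an exact permutation p of 0.5. Gapdh had 76 near-identical copies, mostly processed pseudogenes, which together held 483 to 580 CPM in each embryo. Adding them left the Gapdh groups overlapping.

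**Figure D4:**
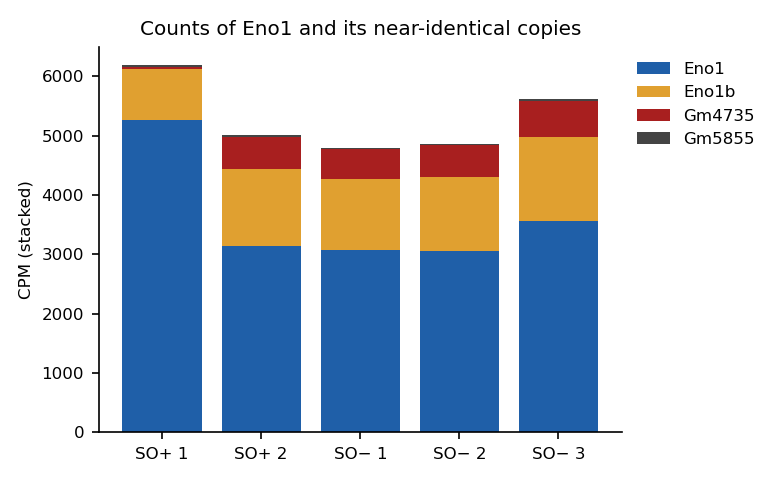
CPM of Eno1, Eno1b and the pseudogenes Gm4735 and Gm5855 in each embryo, stacked to the sum. SO+ embryo 1 has the most Eno1 and almost no Gm4735, and the summed bars of the 2 genotypes overlap.

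Lactate dehydrogenase interconverts pyruvate and lactate. Ldha was measured at 7442 and 6959.7 CPM in SO+ and at 5749, 5836 and 6514 CPM in SO− embryos. All 3 SO− embryos lay below the SO+ pair (log2 fold change −0.25, SE 0.08, edgeR adjusted p = 0.152). Ldhb, the heart-type subunit, was at 227 and 285 CPM against 175, 129.7 and 284 CPM, and here SO− embryo 3 matched SO+ embryo 2 (log2 fold change −0.34, SE 0.23, edgeR adjusted p = 0.582). Ldha made up 91.6% to 95.5% of the pair per length over all embryos.

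The pyruvate dehydrogenase complex, which opens the way into the tricarboxylic acid cycle, had fold changes close to 0. Its subunits Pdha1, Pdhb and Dlat had log2 fold changes of 0.08, −0.07 and −0.04, all with overlapping groups. Of its inhibitory kinases, Pdk3 was at 99.1 and 107.8 CPM in SO+ and at 69.2, 83.2 and 72.1 CPM in SO− embryos, without overlap (log2 fold change −0.48, SE 0.14, edgeR adjusted p = 0.0997). Pdk1, a kinase induced by hypoxia, was at 119.9 and 83.6 CPM against 91.4, 119.0 and 94.5 CPM, with almost the same mean (log2 fold change −0.02, SE 0.17, edgeR adjusted p = 0.982). Pdk2 was low and overlapped, at 10.2 and 9.39 CPM against 7.74, 5.37 and 11.7 CPM (log2 fold change −0.16). Pdk3 was the main kinase gene per length in every embryo, with 63.8% to 75.4% of the 4. In CPM, without the exon length, Pdk1 was above Pdk3 in every embryo but SO+ embryo 2.

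The pentose phosphate pathway draws glucose 6-phosphate off into NADPH and ribose. G6pdx, its entry enzyme, overlapped between genotypes (log2 fold change 0.04, edgeR adjusted p = 0.957). Pgd, Tkt and Taldo1 lay below both SO+ embryos in all 3 SO− embryos, with log2 fold changes of −0.17, −0.26 and −0.19, and none was called. G6pdx, Pdha1, Pdk3 and Pgk1 lie on the X chromosome. Y-linked transcripts were present in all 5 embryos (121 to 171 CPM in sum). Xist, the X-inactivation RNA, was low and uneven, at 1.45 and 8.73 CPM in SO+ and at 1.21, 4.47 and 18.6 CPM in SO− embryos. Its part in the X-linked values was not tested. Of the exon length of Pdha1, 16.2% overlaps Map3k15, of G6pdx 13.6% overlaps Ikbkg and of Pkm 15.3% overlaps another locus, and reads there could be shared.

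Isoform choice was compared as the log2 ratio of 2 genes per length within an embryo, which does not depend on library depth scaling. Of 10 pairs, 8 overlapped between genotypes, among them Hk2/Hk1, Ldhb/Ldha, Pfkm/Pfkl and Slc2a3/Slc2a1. The widest shift was Slc16a3 over Slc16a1, at −0.25 and −0.87 in SO+ and at −2.01, −1.73 and −1.14 in SO− embryos. The mean log2 ratio was lower by 1.07 in SO− embryos (difference −1.07, exact permutation p = 0.2, two-sided), and the Slc16a3 share of the pair was 40.6% in SO+ and 24.7% in SO− embryos. The ratio of Pdk3 over Pdk1 was 1.33 and 1.97 in SO+ and 1.20, 1.09 and 1.21 in SO− embryos (difference −0.48, exact permutation p = 0.1). Slc2a3 over Slc2a1 was −1.25 and −0.98 in SO+ and −0.51, −0.18 and −1.13 in SO− embryos, where SO− embryo 3 fell between the SO+ pair (difference 0.51, exact permutation p = 0.3). Adjusted over the 10 pairs, the p-values were 0.75 to 0.9, and no raw p under 0.1 is possible with 2 against 3 embryos. In all 8 families of members, transporters included, the gene with the highest level per length was the same in all 5 embryos. Slc2a1 was above Slc2a3 and Slc16a1 above Slc16a3 in each. In CPM, without the exon length, Slc2a3 was above Slc2a1 in SO+ embryo 2 and in SO− embryos 1 and 2. On the same scale Slc16a3 was above Slc16a1 in SO+ embryo 1, and Pdk1 was above Pdk3 in every embryo but SO+ embryo 2. Eno1b is not a member, and per length it was above Eno1 in every embryo but SO+ embryo 1. In CPM Eno1b was below Eno1 in every embryo.

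**Figure D5:**
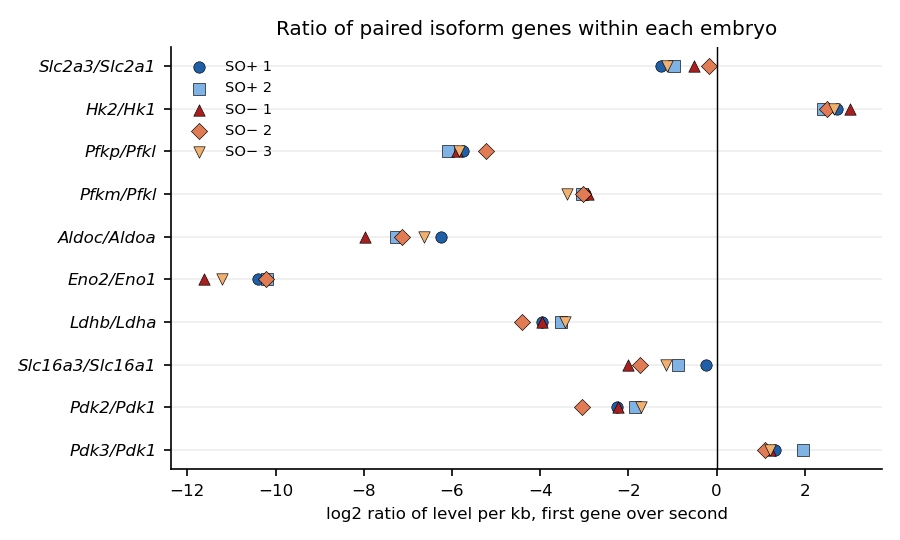
The log2 ratio of the level per kb of exon for 10 pairs of genes, with 1 point per embryo. Only Slc16a3/Slc16a1 and Pdk3/Pdk1 have all 3 SO− embryos on one side of the SO+ pair, and the remaining 8 pairs overlap.

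Summed over the 35 genes, the pathway made up 3.58% and 3.12% of all counts in SO+ embryos 1 and 2, and 2.86%, 2.89% and 3.17% in SO− embryos 1, 2 and 3. SO− embryo 3 lay between the SO+ embryos. The ratio of the genotype means was 0.889, with an exact permutation p of 0.3. Without the 4 transporters the sums were 32573 and 28047 CPM against 24384, 24771 and 27957 CPM. All 3 SO− embryos then lay below the SO+ pair, by a small margin for embryo 3, with a ratio of 0.848 and an exact permutation p of 0.2.

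Genes around the pathway were followed in lists of their own. Of 52 other genes of glycolysis, gluconeogenesis and pyruvate handling, 32 were tested and 0 were called by edgeR, with 5 lower and 0 higher at an unadjusted p under 0.05. The nearest were Shpk, a sedoheptulose kinase near its detection limit in SO− embryos (edgeR adjusted p = 0.0501), and Gpd2, the mitochondrial glycerol phosphate dehydrogenase. Gpd2 was at 80.4 and 69.5 CPM in SO+ and at 45.2, 50.1 and 50.8 CPM in SO− embryos, without overlap (log2 fold change −0.62, SE 0.15, edgeR adjusted p = 0.053). All 16 tricarboxylic acid cycle enzymes were tested and 0 were called, with 1 lower and 0 higher at an unadjusted p under 0.05, and their median log2 fold change was −0.03.

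Among 15 known regulators of glycolytic genes, 14 were tested and 1 was called. Mycn, a MYC family transcription factor, was at 139 and 154 CPM in SO+ and at 78.6, 73.4 and 89.2 CPM in SO− embryos. All 3 SO− embryos were below the SO+ pair (log2 fold change −0.85, SE 0.13, edgeR adjusted p = 0.0043). Hif1a, the oxygen-regulated transcription factor, was not called (log2 fold change 0.17, edgeR adjusted p = 0.510). Of 18 hypoxia-inducible genes outside the pathway, 15 were tested and 2 were called, both lower. Bnip3, which directs mitochondria to autophagy, was at 356 and 226 CPM in SO+ and at 128, 132 and 181 CPM in SO− embryos (log2 fold change −0.96, SE 0.19, edgeR adjusted p = 0.016). Ndrg1, a stress-responsive gene, was at 26.2 and 21.9 CPM in SO+ and at 6.77, 3.58 and 6.92 CPM in SO− embryos (log2 fold change −1.94, SE 0.30, edgeR adjusted p = 0.0041). Neither Bnip3 nor Ndrg1 overlapped between genotypes. The median over the 15 genes was −0.22, with 9 below 0. SO+ embryo 1 stood well above SO+ embryo 2 in several of them, with Bhlhe40 at 24.0 against 0.998 CPM, Ddit4 at 16.8 against 2.63 CPM, Ankrd37 at 10.3 against 2.59 CPM and Vegfa at 4.25 against 0.739 CPM. The part of SO+ embryo 1 in the median was not tested. Of these 2 lists, 0 genes were called by edgeR without SO− embryo 1 or without SO− embryo 2, and without SO+ embryo 1 Bnip3 was not called.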

How the data were processed

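Epiblast and VE of single embryos were profiled by SmartSeq2 from 1 ng of input with 15 cycles of amplification and no molecular identifiers, so PCR copies cannot be recognised. The authors removed adapters with cutadapt, aligned paired-end reads to GRCm38/mm10 with STAR and counted them with HTSeq-count on Ensembl 87, and the deposited values are raw counts without normalization. The strand setting of the counting is not given in the sources used here. Groups and replicate numbers came from the sample labels. Each library is 1 embryo.

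Counts were tested in R 4.3.3 with edgeR 4.0.16 over the whole table, using filterByExpr, TMM scaling and the quasi-likelihood test with genotype as its single term, with Benjamini-Hochberg adjustment over 12067 genes and a threshold of 0.05. The standard error is the absolute log2 fold change over the square root of F. CPM used the total count of a library, and RPKM the merged exon length of GENCODE M21, which gave a position for 99.3% of genes. The merged length counts all annotated exons of a gene and can exceed that of the transcripts present, so rankings per length depend on it. Sums and pair ratios (0.5 counts added) were compared by exact permutation over 10 splits. Near-identical copies were found with BLAST 2.17.0 as other genes at least 95% identical over at least 300 bp. In simulated counts, edgeR recovered 126 of 200 changed genes with 8 false calls among 11763. Every simulated log2 fold change was larger in size than that of any member tested except Pfkfb3. Recovery of changes as small as those of the other members was therefore not measured.

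Members and lists were chosen with earlier results of these data known. All members are accounted for. Given in full are those called, both genes of each pair, the 3 highest by RPKM and the 5 largest fold changes, and of the other lists the genes called. Other list genes are given by counts, and Shpk, Gpd2, Hif1a, Xist, Bhlhe40, Ddit4, Ankrd37, Vegfa and the copies of Eno1 were named after their values were seen. Alternatives were DESeq2 1.42.0, limma-voom (limma 3.58.1), RLE and upper-quartile scaling, other filters on low counts, the replicate number as a block, removal of GC and length trends, thinning of the SO+ libraries (median of 10 draws), other pseudocounts and weights in the ratios and sums, and each embryo left out. Adding the counts of near-identical copies was chosen after seeing the data. The spatial reference and binding data of the study were not used here.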

Additional observations from a re-analysis of the deposited data

How the results depend on the processing

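The median log2 fold change of the members stayed below 0 under every alternative run, and ranged from −0.32 to −0.14 as each embryo was left out. Of 33 members tested, 23 were below 0 without SO+ embryo 1, and 27 or more under the other alternatives. Over all genes, 283 were called in the test as reported, 91 with limma-voom and 35 to 573 as each embryo was left out. Of the members, 2 were called as reported, 1 (Slc2a3) with limma-voom, 3 with DESeq2, which added Slc16a1, and 0 to 7 as each embryo was left out. Members called numbered 0 without SO− embryo 1 or SO− embryo 2, 1 without SO+ embryo 1, 4 without SO− embryo 3, and 7 when SO+ embryo 2 was dropped. Other pathway genes called numbered 3 as reported, 1 with limma-voom, 5 with upper-quartile scaling, and 0 to 10 as each embryo was left out. Isoform pairs without overlap numbered 2 as reported and 2 to 5 as each embryo was left out, where fewer embryos have fewer ways to overlap. The ratio of the summed member levels ranged from 0.832 to 0.955 over these alternatives. The cause of these changes was not tested beyond the number of embryos and genes that each alternative leaves.

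With the replicate number as a block, 929 genes, 15 members and 12 other pathway genes were called, and the fold change of Pdk1 turned to 0.022. Same-numbered embryos are different animals. The deviations of numbers 1 and 2 from their group means correlated at 0.0078 and 0.115. With 2 SO+ embryos these deviations are exact opposites in that group, so the 2 values are not separate checks. A shared litter or batch was not tested, and the numbers were not used as pairs in the test as reported.

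Fold changes that turned sign on leaving out an embryo were those of Pdk1 (from −0.26 without SO+ embryo 2 to 0.25 without SO+ embryo 1, with 0.038 and 0.012 when SO− embryos 1 and 3 were left out), Pfkp (−0.50 to 0.13), Pfkfb3 (−1.76 to 0.60), Aldoc (−1.30 to 0.011) and Eno1 (−0.70 to 0.035), each highest without SO+ embryo 1, Dlat (−0.16 to 0.068, highest without SO+ embryo 2), G6pdx (−0.12 to 0.20, and −0.043 without SO− embryo 1) and Pdha1 (−0.013 without SO− embryo 1 to 0.13). Of the remaining member values under alternatives, 489 kept direction and side of the threshold, 21 gained a call and 6 lost one. Leaving out an SO+ embryo leaves a single sample in that arm, which is assumed to vary like the others.

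The depth of the SO− libraries and 2 SO+ embryos limit these results. Eno2 and Pdk4 could not be tested, low genes such as Hk1, Aldoc and Pdk2 rest on few counts in SO− embryo 2, and no exact test over embryos can go below p = 0.1.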

Other observations

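Of the 14 regulators tested, 3 (Hif1a, Myc and Arrdc4) were higher in SO− embryos without overlap and 2 (Mycn and Egln3) were lower. The other 9 overlapped, and only Mycn was called. Over all genes tested, every SO− value lay above both SO+ values for 13.9% and below both for 15.6%. Myc, a growth-associated transcription factor, was at 53.6 and 61.4 CPM in SO+ and at 69.4, 77.0 and 76.6 CPM in SO− embryos (log2 fold change 0.37, edgeR adjusted p = 0.268), opposite in sign to Mycn. Arrdc4, an arrestin that restrains glucose transport, was at 10.3 and 16.6 CPM in SO+ and at 23.9, 25.9 and 22.7 CPM in SO− embryos (log2 fold change 0.84, edgeR adjusted p = 0.158). Egln3, a prolyl hydroxylase of the oxygen-sensing pathway that hypoxia itself induces, was at 32.1 and 17.0 CPM in SO+ and at 14.0, 8.95 and 12.4 CPM in SO− embryos (log2 fold change −0.99, edgeR adjusted p = 0.146). Basigin (Bsg), the chaperone that brings the lactate transporters to the membrane, overlapped between genotypes, at 550.0 and 605 CPM in SO+ and at 558, 599 and 589 CPM in SO− embryos (log2 fold change 0.01, edgeR adjusted p = 0.979). Myc, Arrdc4, Egln3 and Bsg were picked after their values were seen.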
